A study of Ovis aries and Mus musculus with 10 samples.

Results

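mmu-miR-144, mmu-miR-451 and mmu-miR-486 are the miRNAs known as abundant in red blood cells, and their levels were followed here through the reproductive cycle of the mammary gland as a guide to blood in the tissue. The members were the miRNAs whose gene name on the array equalled 1 of these 3 names, out of 567 mouse miRNAs on the array, and all 3 were measured on all 10 arrays and entered the tests. Mammary tissue of ewes and of CD1 mice, an outbred stock, gave total RNA that was labelled with Cy3 and hybridised to 1-colour Agilent miRNA arrays. Every combination of species, stage and day had a single array. The 5 sheep arrays were from ewes in cycle (day 15), in gestation (days 14, 64 and 125) and in lactation (day 60). The 5 mouse arrays were from virgin mice (no day in the label), mice in gestation (days 10 and 17) and mice in lactation (days 2 and 10). The labels name no treatment and do not say whether an RNA came from 1 animal or from several. No stage and day was repeated, so the limma p-values below rest on the spread between arrays of different days of the same class. Where species and stage class are fitted without their interplay, they also rest on how well the species agree in their stage changes. The class not pregnant had 1 array per species and adds no spread between days. The permutation p-values shuffle all 10 arrays without regard to class. The number of arrays limits the precision of all of them. The array was designed for mouse miRNAs, and how well its probes match sheep miRNAs was not tested, so species and probe match cannot be told apart.

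miRNAs are short RNAs that guide Argonaute proteins to target messages and lower their output. miR-144 and miR-451 are cut from a single precursor transcript that the erythroid factor GATA1 switches on, and miR-451 is matured by Argonaute 2 itself, without Dicer. In mice, miR-451 protects red cells from oxidative stress. miR-486 lies in the gene for ankyrin 1, a protein of the red cell membrane skeleton, and is also known as a miRNA of heart and skeletal muscle. Mature mammalian red cells have no nucleus but keep these miRNAs, so whole tissue that holds blood carries them even where its own cells do not make them. In whole tissue, fewer red cells and less of a miRNA per cell cannot be told apart.

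Each member was read by 2 probes with 10 spots each, 20 spots per array in all, and both probes of a pair target overlapping bases of the same mature miRNA. On mouse build mm9, the one the files name, the miR-451 probes were annotated to chr11:77886689-77886709 and chr11:77886688-77886709, and the miR-144 probes to chr11:77886550-77886568 and chr11:77886549-77886568. These are 21, 22, 19 and 20 bases long. The miR-144 and miR-451 sites are thus close neighbours on chromosome 11, as is known of their shared precursor. The miR-486 probes were annotated to chr8:24253067-24253080 and chr8:24253068-24253080, which is 14 and 13 bases. No probe for the other strand of these hairpins was found on the array.

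miR-451 stood far above background on every array. Its unscaled signal, the mean of its spots in arbitrary units, was 292.6 in sheep in cycle, 318.9, 286.4 and 193.6 on sheep gestation days 14, 64 and 125, and 480.4 on sheep lactation day 60. In mouse it was 3403 in virgin mice, 1268 and 1545 on gestation days 10 and 17, and 988.1 and 941.2 on lactation days 2 and 10. All 5 sheep arrays lay below all 5 mouse arrays, the highest sheep value being that of lactation and the lowest mouse value also that of lactation. How common this was among all miRNAs was counted only after the scaling described below, where 21 of 213 tested or 9.86% had it. For scale, 95% of the 672 negative control spots of an array lay below 10.7 to 13.2. Every miR-451 spot used was marked as well above background by the scanner software, and none was saturated.

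miR-144 was not detected in sheep. Its unscaled signal was 0.218, 2.70, 4.98, -1.75 and 4.14 on the sheep arrays in the same stage order, with 0 of its spots well above background on any of them. In mouse it was 82.3 in virgin mice, 17.5 and 44.9 on gestation days 10 and 17, and 23.4 and 19.3 on lactation days 2 and 10. It was called detected on all 5 mouse arrays, and all 20 spots were well above background in virgin mice and on gestation day 17. On gestation day 10, 0 of 20 spots were well above background, on lactation day 2 13 of 20, and on lactation day 10 10 of 19. The 2 species did not overlap in unscaled miR-144 signal. How many of all miRNAs were free of such overlap was not counted without scaling. After the scaling described below, mouse gestation day 10 was set to the same lowest value as all sheep arrays. On that scale miR-144 was thus not among the 21 of 213 miRNAs tested with all sheep arrays below all mouse arrays.

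miR-486 was the member nearest to background. Its unscaled signal was 8.27, 13.5, 19.7, 0.0963 and 4.66 on the sheep arrays in stage order, and it was called detected in sheep only on gestation days 14 and 64. In mouse it was 83.2 in virgin mice, 17.3 and 22.5 on gestation days 10 and 17, and 12.3 and 13.1 on lactation days 2 and 10, and it was called detected on all 5 arrays. The species overlapped, since sheep gestation days 14 and 64 lay among the mouse gestation and lactation values. Only the virgin mouse array stood clear of the rest. The 2 miR-486 probes did not read alike: on sheep gestation day 64, 10 of 10 spots of the probe with 14 target bases were well above background, and the probe with 13 target bases had all its spots well above background in virgin mice only.

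**Figure D1:**
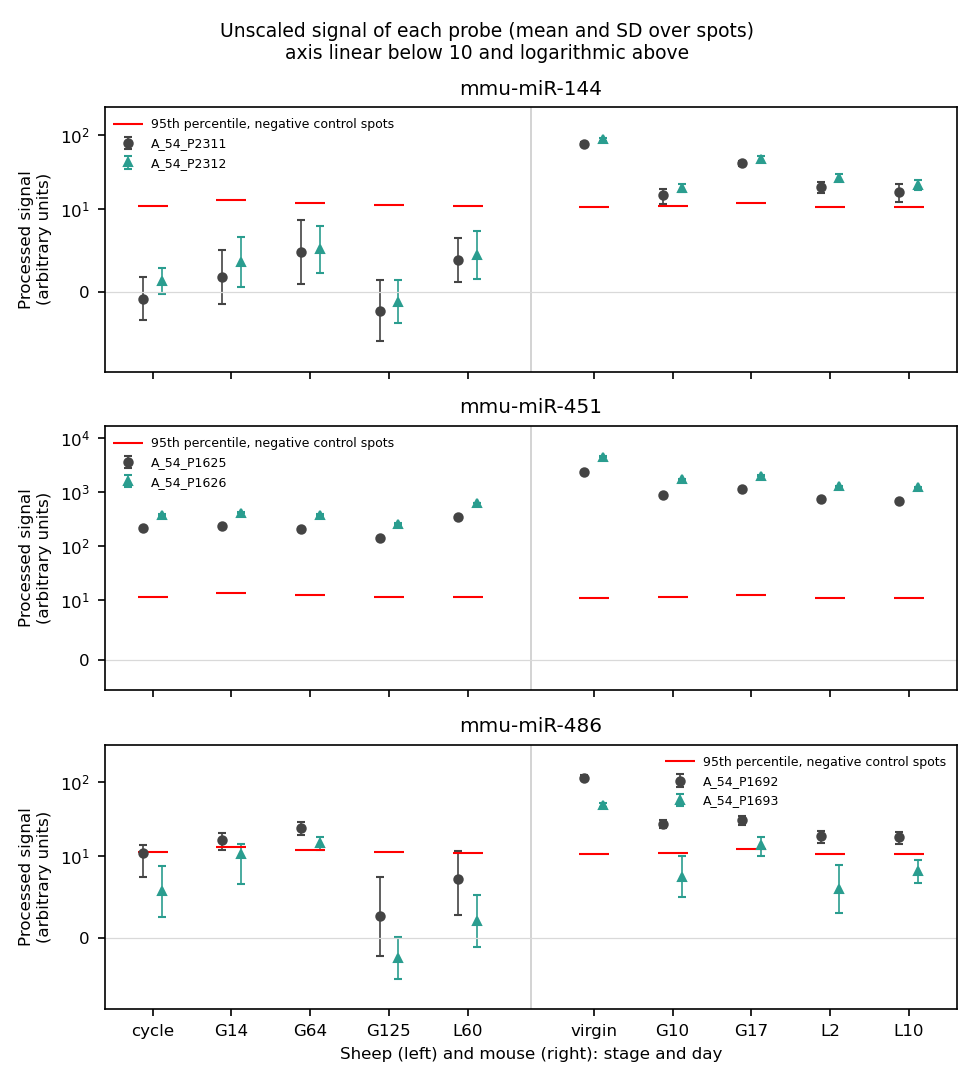
Unscaled signal of the 2 probes of each miRNA on the 5 sheep arrays (left) and 5 mouse arrays (right) in stage order, as mean and SD over spots, on an axis that is linear below 10 and logarithmic above; red bars mark the 95th percentile of the negative control spots of each array. Both miR-451 probes lie far above the red bars on all 10 arrays, both miR-144 probes lie below them on all 5 sheep arrays and above them on all 5 mouse arrays, and the miR-486 probes lie near them, above or below, on every array but that of virgin mice.

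To compare arrays, each array was scaled by its 75th percentile over 94 miRNAs that were detected on every array, and values below 0.029 on that scale, -5.11 in log2, were set to this floor. The divisors were 1998, 1831, 1561, 939.1 and 788.5 for the sheep arrays and 598.1, 702.2, 936.6, 394.2 and 245.6 for the mouse arrays in stage order, so they differed between species and were lowest in lactation in both. Differences on the scaled log2 scale are therefore relative to that shared set. Values at the floor have no order among themselves.

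On the scaled log2 scale, miR-451 was -2.77, -2.52, -2.45, -2.28 and -0.72 on the sheep arrays in stage order. It was 2.51 in virgin mice, 0.85 and 0.72 on gestation days 10 and 17, and 1.33 and 1.94 on lactation days 2 and 10. From lowest to highest, the order was sheep in cycle, sheep gestation days 14, 64 and 125, sheep lactation day 60, mouse gestation days 17 and 10, mouse lactation days 2 and 10, and virgin mice. Neighbours among the 4 lowest sheep arrays were at most 0.25 apart, and the pair of mouse gestation arrays 0.13 apart. These gaps are larger than the standard error over spots, which reached 0.018, but spots of 1 array do not show how animals vary, and no repeat of a day was available to set that spread.

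miR-144 and miR-486 were at the floor on all 5 sheep arrays. In mouse, miR-144 was -2.86 in virgin mice, at the floor on gestation day 10, -4.38 on gestation day 17, and -4.08 and -3.67 on lactation days 2 and 10. miR-486 was -2.85 in virgin mice, at the floor on gestation days 10 and 17, and -5.01 and -4.23 on lactation days 2 and 10. On this scale all 3 members were highest in mouse in the virgin gland, with lactation day 10 next.

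**Figure D2:**
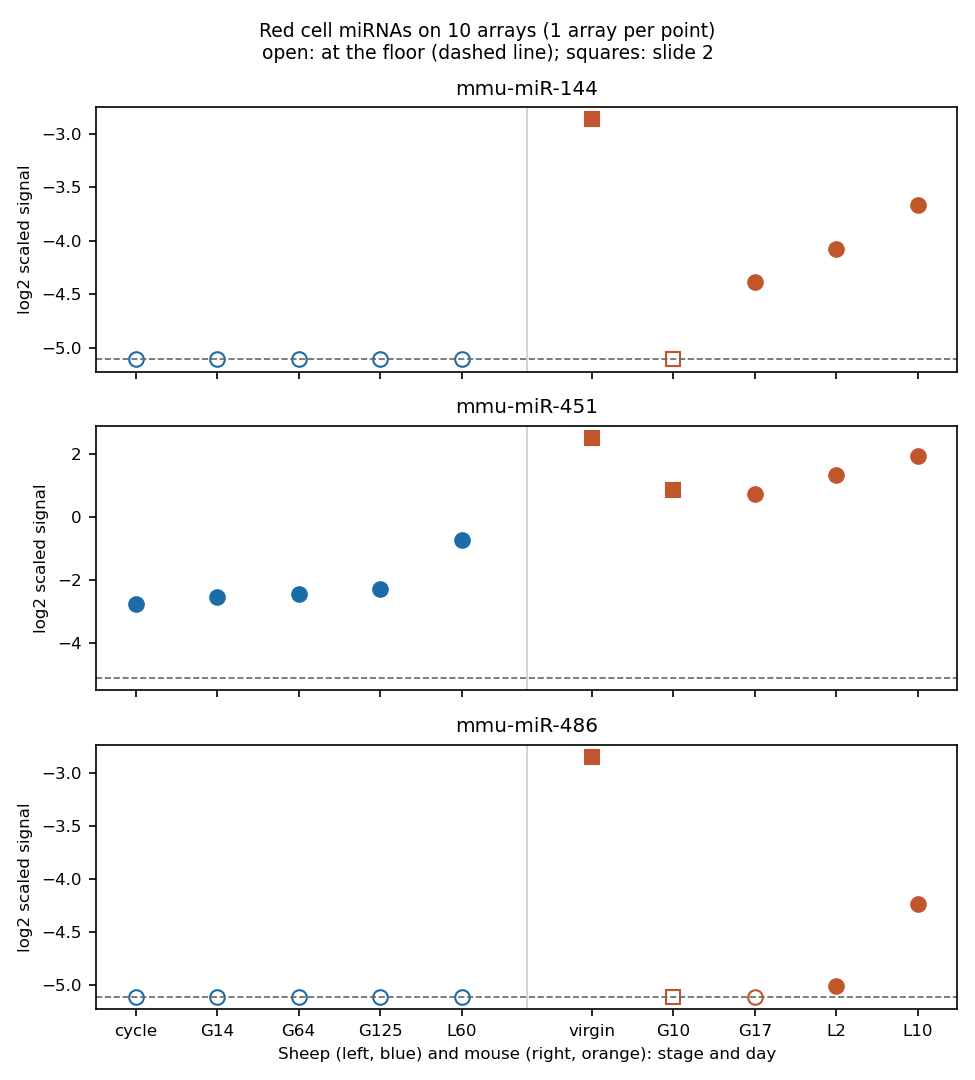
Scaled log2 signal of the 3 miRNAs on each array, sheep on the left in blue and mouse on the right in orange, in stage order from cycle or virgin through gestation (G) to lactation (L) with the day; open symbols lie at the floor (dashed line) and squares mark slide 2. miR-451 of sheep lies between -2.77 and -0.72 and that of mouse between 0.72 and 2.51, while miR-144 and miR-486 of sheep are at the floor of -5.11 throughout.

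Sheep and mouse were compared first, across stage classes (not pregnant, gestation and lactation). miR-451 averaged -2.15 ± 0.82 in sheep and 1.47 ± 0.75 in mouse (scaled log2, SD, n = 5 each). It was lower in sheep by limma, with an estimate of -3.40 ± 0.43 (SE) after allowing for stage class and an adjusted p of 0.00172. An exact permutation test of the unadjusted species difference of -3.62, two-sided over all arrangements of 5 against 5 arrays, gave p = 0.00794, the smallest this design allows. Of the 213 miRNAs tested, 46 or 21.6% passed the limma threshold, of which 28 or 13.1% were lower in sheep, and 21 or 9.86% had all 5 sheep arrays below all 5 mouse arrays, so a species difference was common on this array. Without any scaling the miR-451 estimate was -2.26, and within slide 1 alone, which leaves out virgin mice and mouse gestation day 10, it was -2.77. Its probes with 21 and 22 target bases gave species differences of -3.61 and -3.62.

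miR-144 averaged -5.11 in sheep, where every array was at the floor, and -4.02 ± 0.83 in mouse (scaled log2, n = 5 each). The limma estimate was -1.01 ± 0.33 with an adjusted p of 0.0711, which did not pass the threshold of 0.05. The exact permutation test gave p = 0.0476, 1 of 3 such tests and not adjusted. Since miR-144 was not well above background on any sheep array, the size is better given as a bound on the scaled scale. On it, the mean of the 5 mouse arrays was at least 3.32-fold above sheep. This compares means over arrays and is not a bound for each mouse stage. Mouse gestation day 10 entered that mean at 0.0249 on the scaled scale, with 0 of 20 spots well above background. The mouse mean before the floor was applied was -4.06, and the sheep limit -5.79. The divisors were 788.5 to 1998 in sheep and 245.6 to 936.6 in mouse, so the bound rests in part on the scaling. No bound was worked out without scaling. The probe was well above background on 4 of 5 mouse arrays. The limma call depended on the floor: with a floor 4 times lower, the estimate was -2.95 and the adjusted p 0.000519.

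miR-486 averaged -5.11 in sheep, all at the floor, and -4.46 ± 0.97 in mouse (scaled log2, n = 5 each). The limma estimate of -0.62 ± 0.37 had an adjusted p of 0.305, and the exact permutation test gave p = 0.167. With a floor 4 times lower the estimate was -2.35 with an adjusted p of 0.00504. Its probe with 14 target bases differed by -1.08 between sheep and mouse, and the probe with 13 target bases by -0.34.

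**Figure D3:**
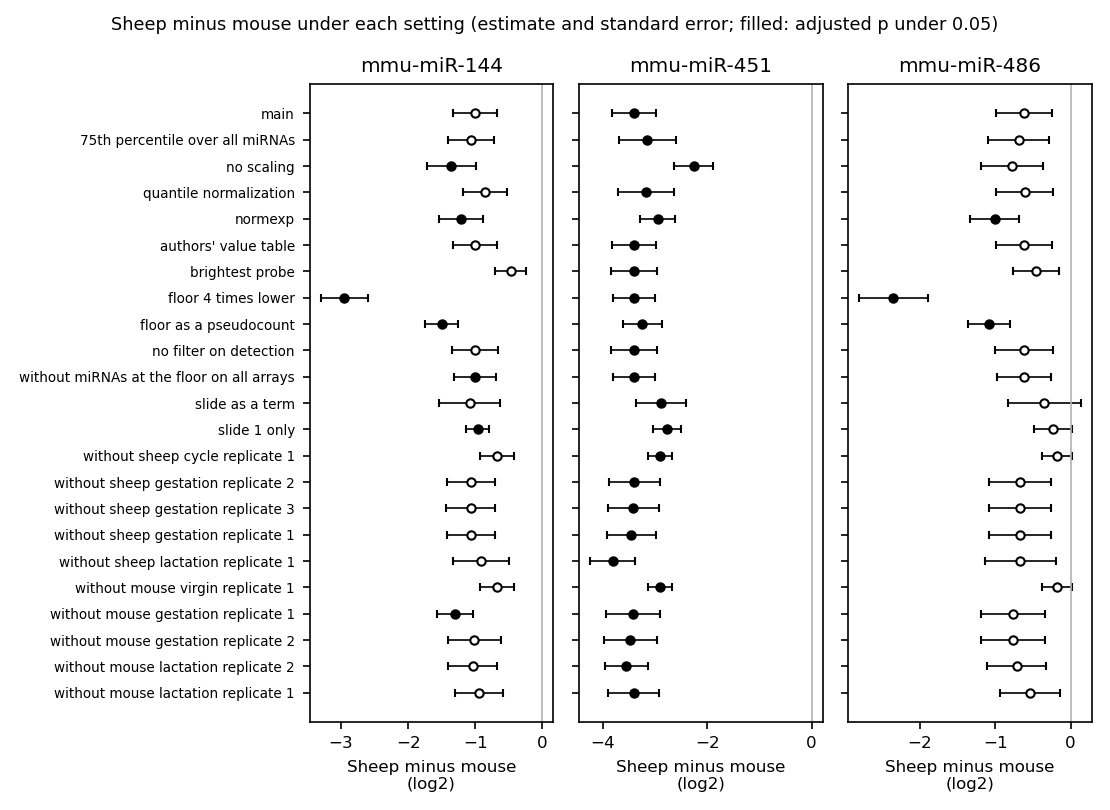
Sheep minus mouse difference (log2, estimate and standard error from limma) of each miRNA under the main setting and each alternative, filled where the adjusted p is under 0.05. miR-451 is filled in every row, between -3.81 and -2.26, whereas miR-144 and miR-486 are filled in some rows only, those with a lower floor or none among them.

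The stages were compared next. In mouse, all 3 members were lower on gestation day 10 than in virgin mice, a pair of arrays that share slide 2. miR-451 was at 0.85 on gestation day 10 and 2.51 in virgin mice, a step of -1.66 or 3.15-fold, and without scaling its day 10 signal was 37.3% of the virgin one. miR-144 was at least 4.75-fold lower on gestation day 10 than in virgin mice, and its unscaled signal there was 21.2% of the virgin one. miR-486 was at least 4.80-fold lower, and its unscaled signal was 20.9% of the virgin one. With 1 array on each side these are differences between 2 arrays and have no test.

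Of the 134 miRNAs above the floor on either of those arrays, 8 or 5.97% were lower on gestation day 10 by 1 or more on the log2 scale, and all 3 members were among these 8. The other 5, named here after their values were seen, were mmu-miR-1, mmu-miR-133a, mmu-miR-133b and mmu-miR-206, which mark striated muscle, and mmu-miR-494. The median step over the 134 was 0.14. Of the 6 striated muscle miRNAs on the array, 4 were above the floor in virgin mice, 0 on gestation day 10, 4 on gestation day 17 and 0 on lactation days 2 and 10. Their summed scaled signal was 1.94 in virgin mice, 0.0313 and 0.754 on gestation days 10 and 17, and 0.0351 and 0.0201 on lactation days 2 and 10. miR-1 was at -1.66 on gestation day 17 and at -0.73 in virgin mice, and miR-206 at -3.11 in virgin mice. The part of muscle tissue in the virgin values of miR-486, itself a muscle miRNA, was not tested. On gestation day 17, where muscle miRNAs were above the floor, the mean of the miR-486 probes was at it. The probe with 14 target bases was above it, at 0.0329 on the scaled scale with 10 of 10 spots well above background. That probe was above the floor on every mouse array. It was at 0.03875, 0.0470 and 0.0735 on gestation day 10 and lactation days 2 and 10, where no muscle miRNA was above the floor. On these, 6, 3 and 4 of its 10 spots were well above background.

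After gestation day 10 the members did not move as one. By gestation day 17, on the other slide, miR-451 stepped by -0.13, miR-144 left the floor and the mean of the miR-486 probes stayed at it. On the scaled scale, miR-451 was then 0.60 higher on lactation day 2 than on gestation day 17, and 0.61 higher on lactation day 10 than on lactation day 2, but without scaling its signal on these days was 0.640 and 0.952 times that of the day before in the series. miR-144 was 0.31 ± 0.053 and 0.41 ± 0.083 higher over the same steps (scaled log2, SE over spots), and without scaling 0.521 and 0.826 times as high. The scaled values of both thus went up through lactation while the unscaled ones went down. As a share of the virgin value, lactation day 10 stood at 67.4% scaled and 27.7% unscaled for miR-451, at 57.2% and 23.5% for miR-144, and at 38.3% and 15.7% for miR-486.

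In sheep only miR-451 could be followed. It stepped by 0.25, 0.07 and 0.17 from cycle through gestation days 14, 64 and 125 (scaled log2), but without scaling the signal was 1.09, 0.898 and 0.676 times that of the array before, so the steps to days 64 and 125 turned. On the scaled scale it was then 1.56 or 2.96-fold higher on lactation day 60 than on gestation day 125. The unscaled signal was 2.48 times as high on lactation day 60 as on gestation day 125, so the step to lactation did not turn with the scaling. Both miR-451 probes gave it, with unscaled signals of 346.3 on lactation day 60 and 137.5 on gestation day 125 for the probe with 21 target bases, and of 614.5 and 249.6 for the probe with 22. Of the 124 miRNAs above the floor on either array, 8 or 6.45% were higher on lactation day 60 by 1 or more on the log2 scale, and miR-451 was the 7th by size. The other 7, named after their values were seen, were mmu-miR-29a, mmu-miR-29b, mmu-miR-29c, mmu-miR-146b, mmu-miR-148a, mmu-miR-204 and mmu-miR-375. The median step over the 124 was -0.22. miR-144 stayed at the floor on sheep lactation day 60, with 0 spots well above background.

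Over both species, no stage comparison of a member passed the limma threshold. Gestation against not pregnant gave -0.88 ± 0.42 for miR-144, -0.66 ± 0.55 for miR-451 and -1.07 ± 0.48 for miR-486 (log2, SE), each with an adjusted p of 1 and with unadjusted p of 0.0797, 0.269 and 0.064 in that order. Over all miRNAs, 1 of 213 miRNAs, 0.469%, passed. Lactation against gestation gave 0.41 ± 0.38 for miR-144, 1.08 ± 0.49 for miR-451 and 0.16 ± 0.43 for miR-486, with adjusted p of 0.723, 0.333 and 0.992, where 2.82% of all miRNAs tested passed. Averaging over species hides what the arrays show for miR-451: gestation minus not pregnant was 0.36 in sheep and -1.72 in mouse, whereas lactation minus gestation was 1.70 in sheep and 0.85 in mouse (scaled log2). The sheep direction in gestation rests on the scaling, since the unscaled signal on gestation days 64 and 125 was below that in cycle, and the mouse direction in lactation does too, since both unscaled lactation signals were below both gestation ones. Without the virgin mouse array the pooled miR-451 estimate of gestation against not pregnant turned to 0.48, and without scaling that of lactation against gestation was -0.02.

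The difference between the species in these stage changes was tested as well. For gestation against not pregnant, sheep minus mouse was 1.88 ± 0.47 for miR-144, 2.08 ± 0.38 for miR-451 and 2.26 ± 0.44 for miR-486 (log2, SE, 4 residual degrees of freedom). The adjusted p by limma were 0.185, 0.0779 and 0.0896, none past the threshold, with 4.23% of miRNAs tested passing. For miR-144 and miR-486 these values carry the mouse change only, since sheep was at the floor throughout. The residual spread of miR-144 and miR-486 also came from mouse arrays only, for miR-486 from lactation days 2 and 10 alone. Arrays at the floor add no spread, so the SE and p of both may be too small. For lactation against gestation, sheep minus mouse was -0.87 for miR-144, 0.86 for miR-451 and -0.49 for miR-486, with adjusted p of 0.647, 0.575 and 0.973, where 0.939% of miRNAs tested passed. The change at lactation was therefore not shown to differ between sheep and mouse.

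**Figure D4:**
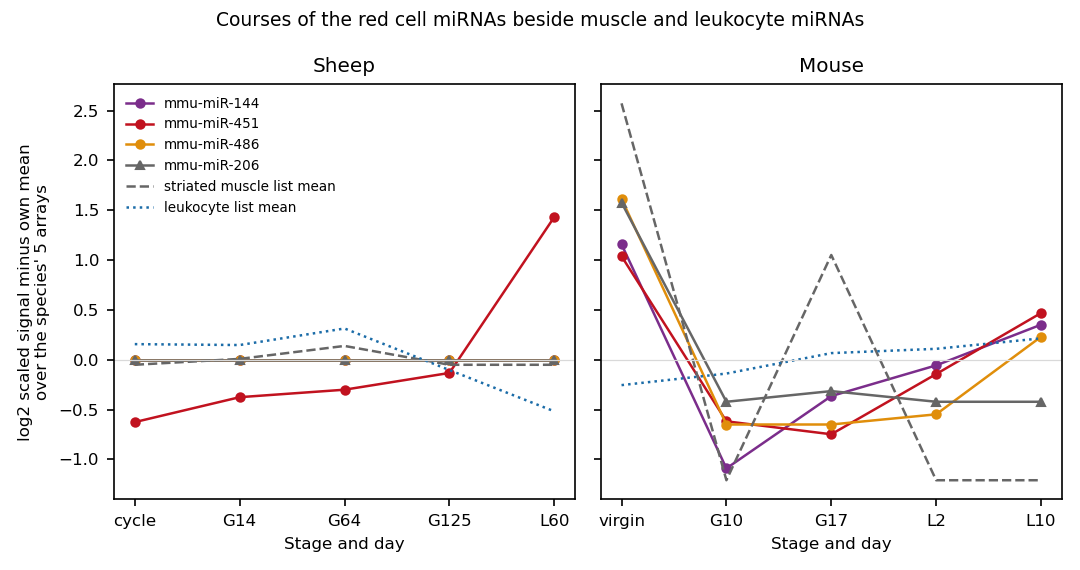
Scaled log2 signal of the 3 miRNAs, of miR-206 and of the mean of the striated muscle and leukocyte lists, each minus its own mean over the 5 arrays of a species, against stage and day, for sheep (left) and mouse (right). In sheep miR-451 is 1.43 above its own mean on lactation day 60 and the flat lines at 0 are miRNAs at the floor on all 5 arrays, and in mouse the 3 miRNAs and the muscle list are all highest in virgin mice.

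How alike the profiles of 2 miRNAs are was described by the root mean square difference between them over the 10 arrays, after each was centred on its own mean within each species. Among 120 candidates, the nearest to miR-451 were mmu-miR-22 (0.401), mmu-miR-151-5p (0.433), mmu-miR-103 (0.542), mmu-miR-107 (0.551) and mmu-miR-192 (0.566), against a median of 0.943. The nearest to miR-144 were mmu-miR-193 (0.526), mmu-miR-500 (0.534), mmu-miR-152 (0.535), mmu-miR-125a-5p (0.541) and mmu-miR-16 (0.545) among 121 candidates, with miR-451 in 8th place at 0.556. A flat profile would have been 0.528 from miR-144, so that list says little. The nearest to miR-486 were miR-22 (0.538), miR-451 (0.570), mmu-miR-152 (0.580), mmu-miR-338-3p (0.597) and mmu-miR-140 (0.598), and a flat profile would have been 0.616 away.

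Over the 5 mouse arrays alone, a view added after the data were seen, the members lay close together, with 1 exception in their order. Among 154 candidates miR-451 was the nearest to miR-144 at 0.285, and miR-486 came next at 0.384. The nearest to miR-451 were miR-144 and then miR-486 at 0.335. The nearest to miR-486 was miR-451, but the muscle miRNA miR-206 came next at 0.348, ahead of miR-144. The medians over candidates were 0.901 for miR-144, 0.819 for miR-451 and 1.01 for miR-486. The arrays compared share their scaling and the floor, and 5 points are too few for more than a description.

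Other miRNAs are abundant in red cells but made by many other cells as well. Of 18 such miRNAs on the array, 16 were tested, 4 were called higher and 2 lower in sheep, with a median difference of 0.16, beside 18 higher and 28 lower of all 213 tested and a median of 0. Over all miRNAs the balance turned with the scaling, with 69 higher and 18 lower without it and 9 higher and 51 lower with normexp background correction. The 4 of the list with the largest estimates were mmu-miR-16 (-4.00, adjusted p = 6.2e-05), mmu-miR-210 (-1.69, adjusted p = 0.0612), mmu-miR-320 (1.55) and mmu-miR-185 (1.48). The floor sets the size of these estimates: miR-16, a repressor of cell cycle messages, was at it on all 5 sheep arrays, miR-185 on all 5 mouse arrays, miR-320 on 4 of 5 mouse arrays and miR-210 on sheep lactation day 60. In lactation against gestation 1 of the 16, miR-103, passed the threshold (1.01, adjusted p = 0.0486), beside 2.82% of all miRNAs tested. No miRNA was called in that comparison with the 75th percentile over all miRNAs, with the brightest probe, with no filter on detection, with slide as a term or on slide 1 alone, so that call was lost there. For gestation against not pregnant each of the 16 had an adjusted p of 1 by limma.

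Leukocyte and endothelial miRNAs, which come with blood and vessels, were read beside the members. Of the 7 leukocyte miRNAs tested, mmu-miR-142-3p, made throughout the blood lineages, was called higher in sheep (1.51, adjusted p = 0.0418 by limma). mmu-miR-223, a miRNA of neutrophils and other myeloid cells, was called lower in sheep (-2.59, adjusted p = 0.00293 by limma). The floor sets the size for miR-223, which was at it on sheep gestation days 14 and 64 and lactation day 60. The list median was 0.26, beside 18 higher and 28 lower of all 213 tested. The summed scaled signal of the list was 0.365 to 1.26 in sheep and 0.572 to 0.93 in mouse. On sheep lactation day 60, where miR-451 was highest in sheep, the leukocyte sum was at its lowest, 0.365, and miR-142-3p was at -2.32. In virgin mice, where the members were highest, the leukocyte sum was at its mouse minimum of 0.572, but the listed miRNAs did not share that course. miR-223 was at -1.36 in virgin mice, -1.20 on gestation day 10 and -2.985 on lactation day 10. On the same arrays miR-142-3p was at -2.98, -2.80 and -2.51. mmu-miR-181a, also on the list, was estimated 1.44 higher in lactation than in gestation over both species (adjusted p = 0.471 by limma). The lymphocyte miRNA mmu-miR-150 was above the floor only on sheep gestation days 14 and 64. mmu-miR-126-3p, made by endothelial cells, was 0.16 in sheep in cycle, 0.55, 0.94 and 0.55 on sheep gestation days 14, 64 and 125, and 1.35 on sheep lactation day 60 (scaled log2), so on that scale its lowest and highest sheep arrays were those of miR-451. Without scaling, both were lowest on gestation day 125. The unscaled miR-126-3p signal was highest on gestation day 64, at 3002 against 2010 on lactation day 60, where that of miR-451 was highest. In mouse it was 0.91 in virgin mice, 1.14 and 0.89 on gestation days 10 and 17, and 1.04 and 0.48 on lactation days 2 and 10. It differed by -0.16 between sheep and mouse (adjusted p = 0.653 by limma), and mmu-miR-126-5p, at the floor on all 10 arrays, could not be compared. The courses of the lists and of the members were not tested against each other. All 6 epithelial miRNAs of the list, mmu-miR-200c, mmu-miR-141 and mmu-miR-205 among them, were above the floor on all 10 arrays, and epithelium is what makes up the secretory part of the mammary gland named in the labels.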

How the data were processed

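Analysis started from the processed signal in the deposited scanner files, a linear intensity with background subtracted and a spatial trend removed inside each array but no normalization across arrays, per the file headers. The headers give Agilent Feature Extraction 10.5.1.1, and the submitters' processing notes give 9.5. Detection, well-above-background, saturation and outlier flags, coded 0 or 1, were deposited with the signal per the file headers. The authors' value table, also an intensity, equalled Agilent's total signal times 1 constant per array, within 0.1% for 98.65 to 100% of miRNAs with a total above 50. Its medians were -0.526, 0.307, 0.266, -3.94 and -2.80 for sheep and -11.2, -5.06, 0.836, -2.35 and -11.6 for mouse in stage order. The basis of the constants, and so the scale and any centring, stays unknown.

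Outlier spots were left out, spots were averaged per probe and probes per miRNA, and arrays were scaled as described. The floor is the highest, over arrays, of the 5th percentile of detected scaled values. Tests covered the 213 miRNAs with detection on 3 or more arrays, and 28 of these never rose above the floor. limma 3.58.1 in R 4.3.3 was used, with Benjamini-Hochberg adjustment over these and a threshold of 0.05. The additive model (species plus stage class) had 6 residual degrees of freedom, and the model with a mean for each species and stage class had 4. The class not pregnant held the cycle array of sheep and the virgin array of mouse. For a probe not well above background, the bound takes on each sheep array the higher of its own signal and the lowest signal well above background. Slide 2 held mouse virgin and mouse gestation day 10, scanned apart from the other 8 arrays, and slide was tried as a term and by leaving slide 2 out.

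Beside the members, miRNAs were named by a fixed rule: defining markers of the cell type lists, the 5 most alike profiles among miRNAs above the floor on at least 5 arrays, and the 4 other red cell miRNAs with the largest species difference. Outside this rule stand mmu-miR-181a, mmu-miR-126-5p and the miRNAs named after their values were seen. The members and lists were chosen with earlier results of these data known. The fits were tested on simulated data.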

Additional observations from a re-analysis of the deposited data

Results flagged for a closer look

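On the scaled log2 scale in sheep, miR-451 on lactation day 60 lay apart from the other 4 arrays. Its gap to the nearest of them, divided by the range over the 5 sheep arrays, was 0.76, above the critical value of 0.71. The array was the only one of sheep lactation, and the gap was 1.56 on the log2 scale. Without scaling the signal was 480.4, against 292.6 in cycle and 318.9, 286.4 and 193.6 on gestation days 14, 64 and 125. The ratio was not worked out without scaling, so the flag holds for the scaled values only. Chance alone flags about 1 in 20 groups of 5 like values, and 4 groups were examined. The arrays of a group differ in stage, and the mouse groups of miR-144 and miR-486 hold values at the floor, so that rate is only a rough guide here.

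For miR-451, the change of gestation against not pregnant differed in direction between the species after scaling. On the scaled scale, all 3 sheep gestation arrays were above the sheep cycle array, and both mouse gestation arrays were below the virgin array. Without scaling the sheep direction did not hold: the signal was 318.9, 286.4 and 193.6 on gestation days 14, 64 and 125, against 292.6 in cycle. Sheep minus mouse was 2.08 (log2), with an adjusted p of 0.0779 by limma, which did not pass the threshold, and with 1 array per species in the class not pregnant.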

How the results depend on the processing

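No paired analysis was possible because replicate numbers were given in accession order and each stage and day had 1 array.

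Sheep against mouse held for miR-451 under all 12 alternatives, with estimates of -3.40 to -2.26 and adjusted p of at most 0.0122, and with each array left out in turn (-3.81 to -2.90). Some of the 12 could not move this estimate, since miR-451 was never at the floor and constants per array cancel in the scaling. These were the authors' value table, no filter on detection, a floor 4 times lower and the removal of miRNAs at the floor. miR-144 passed the threshold without scaling (-1.36), with normexp (-1.22), with a floor 4 times lower (-2.95), with the floor as a pseudocount (-1.50), after dropping miRNAs that no array had above the floor (-1.01, adjusted p = 0.0436), on slide 1 alone (-0.97) and without mouse gestation day 10 (-1.30). With single arrays left out it ranged over -1.30 to -0.675. miR-486 passed with normexp (-1.01), the lower floor (-2.35) and the pseudocount (-1.08), and ranged over -0.761 to -0.175 with single arrays left out. The pseudocount and the removal of miRNAs at the floor were added after seeing the data.

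Gestation against not pregnant turned for miR-451 on slide 1 alone (0.45), in sheep alone (0.36) and without virgin mice (0.48), and ranged over -1.91 to 0.478 with single arrays left out. The ranges were -1.70 to -0.125 for miR-144 and -2.16 to -0.0701 for miR-486, which passed without sheep in cycle (-2.16, adjusted p = 0.024). Lactation against gestation turned without scaling for miR-144 (-0.32), miR-451 (-0.01986) and miR-486 (-0.59). With single arrays left out it ranged over 0.102 to 0.542 for miR-144, 0.479 to 1.39 for miR-451 and -0.0027 to 0.368 for miR-486, the lowest without mouse lactation day 10. Between the species, the change of gestation against not pregnant turned with normexp for miR-144 (-0.88) and miR-486 (-0.57). It passed with the brightest probe for miR-144 (1.49), miR-451 (2.25) and miR-486 (1.89), with slide as a term for miR-144 (2.25) and with quantile normalization for miR-451 (2.25). The change at lactation turned without scaling for miR-144 (0.40) and miR-486 (0.38). Sheep alone gave no value for miR-144 and miR-486. The causes were not tested.

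Over alternatives, the number of miRNAs called was 32 to 98 between species (46 as reported), 0 to 6 for gestation against not pregnant (1), 0 to 24 for lactation against gestation (6), and 0 to 17 (9) and 0 to 9 (2) for the differences of these changes between species. With single arrays left out the first 3 were 35 to 53, 1 to 7 and 0 to 5. Without scaling, 69 miRNAs were called higher and 18 lower in sheep, with the median of all miRNAs shifted by 0.688, and with normexp 9 were higher and 51 lower, with a shift of -0.455. For lactation against gestation the shifts were -0.666 and 0.646. Signal over background limits miR-144 and miR-486: in sheep miR-144 lay below the 95th percentile of the negative control spots on all 5 arrays.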
